A study of Bos taurus with 10 samples.

Results

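Aquaporins are channel proteins that let water cross cell membranes along an osmotic gradient. The water-selective members, such as AQP1, AQP2, AQP4 and AQP5, pass little else, while the aquaglyceroporins AQP3, AQP7 and AQP9 also carry glycerol. Milk is mostly water, which follows lactose out of the secretory cells, so mammary tissue needs water channels in its epithelium and in its capillaries.

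The members were 9 genes of the family, AQP1, AQP2, AQP3, AQP4, AQP5, AQP7, AQP8, AQP9 and AQP11, taken by gene symbol and whatever their signal. Of these, 6 genes had at least 1 probe set whose only symbol named them, with 9 of 24016 probe sets between them: 3 for AQP1, 2 for AQP4 and 1 each for AQP3, AQP5, AQP7 and AQP11. For AQP2, the vasopressin-regulated channel of the kidney, AQP8, and AQP9, a channel of liver cells and leukocytes, the annotation used here paired no probe set with the symbol (3 genes), and they were not analysed here. Where a gene had several probe sets they are called a, b and c from the brightest to the dimmest. In the reference gene table of assembly ARS-UCD2.0, AQP7 and AQP3 are next to each other, and AQP5 lies between AQP6 and AQP2.

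Mammary tissue was compared between neighboring glands and control glands, with 5 arrays per group and 1 cow per array. Neighboring glands had received no bacteria and came from cows in which another gland had been given 500 CFU of the E. coli strain 1303 (in 2 ml of saline) 24 h before slaughter, a strain isolated from clinical mastitis. Control glands came from healthy cows that were handled alike but had no gland inoculated. All 10 animals were primiparous German Holstein Frisian cows in mid lactation, synchronized in estrus with cloprostenol and milked out under oxytocin before the trial. Per the methods of the study, neighboring samples were pools of a saline-treated and an untreated gland, while neighboring 4 came from 1 untreated gland alone. The sample list gives control 3 and control 5 as single glands. Pooling and bulk tissue set a limit: fewer cells of a type and less RNA per cell cannot be told apart in these values.

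Values were log2 RMA values, a scale on which 1 unit is a doubling of the summarized probe signal. They rank a probe set between arrays, but levels of different probe sets are not amounts that can be compared. Array medians lay between 6.25 and 6.27. Caseins and other milk proteins were among the brightest probe sets, with CSN2, the beta-casein gene, above 99.996% of all of them. Following the methods, 8 arrays entered the main fit. The methods left out neighboring 5 as a biological outlier, together with the other array of that animal, and control 3 as a technical outlier. Neighboring 5 lay nearer the controls than the other neighboring arrays on AQP3 and AQP7, so leaving it out enlarges those differences. With neighboring 5 put back and control 3 left out, the calls over all probe sets went from 4886 to 834. The main fit thus favours differences between the groups. Each aquaporin result is given on all 10 arrays as well, and every array is shown. The hybridization controls, labelled transcripts of foreign origin spiked into each sample, also differed between the groups. Their mean over 9 probe sets was 9.92 to 10.14 on the 4 neighboring arrays of the fit and 10.40 on neighboring 5, against 10.17 to 10.59 on the 5 control arrays.

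AQP3 was the aquaporin that changed most, and it was lower in neighboring glands. AQP3 carries water and glycerol through the basolateral membrane of many epithelia. Its values were 7.32, 8.23, 7.68 and 7.92 on neighboring 1 to 4 and 8.64 on neighboring 5, against 8.65, 8.65, 9.19, 8.86 and 8.97 on control 1 to 5. All 5 neighboring arrays lay below all 5 control arrays, but neighboring 5 did so by little, at 8.639 against 8.648 on control 2. On the 8 arrays AQP3 averaged 7.79 ± 0.39 in neighboring glands and 8.78 ± 0.16 in control glands (SD, n = 4 each). It fell by 0.996 ± 0.175 (SE) on the log2 scale, with a 95% interval of −1.38 to −0.61 and an adjusted p of 0.00346 (limma). That is a level 1.99-fold lower.

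Over all 10 arrays AQP3 averaged 7.96 ± 0.51 in neighboring glands and 8.86 ± 0.23 in control glands (SD, n = 5 each). It fell by 0.91 ± 0.21 (SE), with a 95% interval of −1.37 to −0.45 and an adjusted p of 0.0337 (limma). On the 8 arrays 221 of 24016 probe sets fell further (0.92%), and on the 10 arrays 189 did (0.787%). The spread of AQP3 within groups was wide, with a pooled SD of 0.39 against a median of 0.19 over all probe sets.

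**Figure D1:**
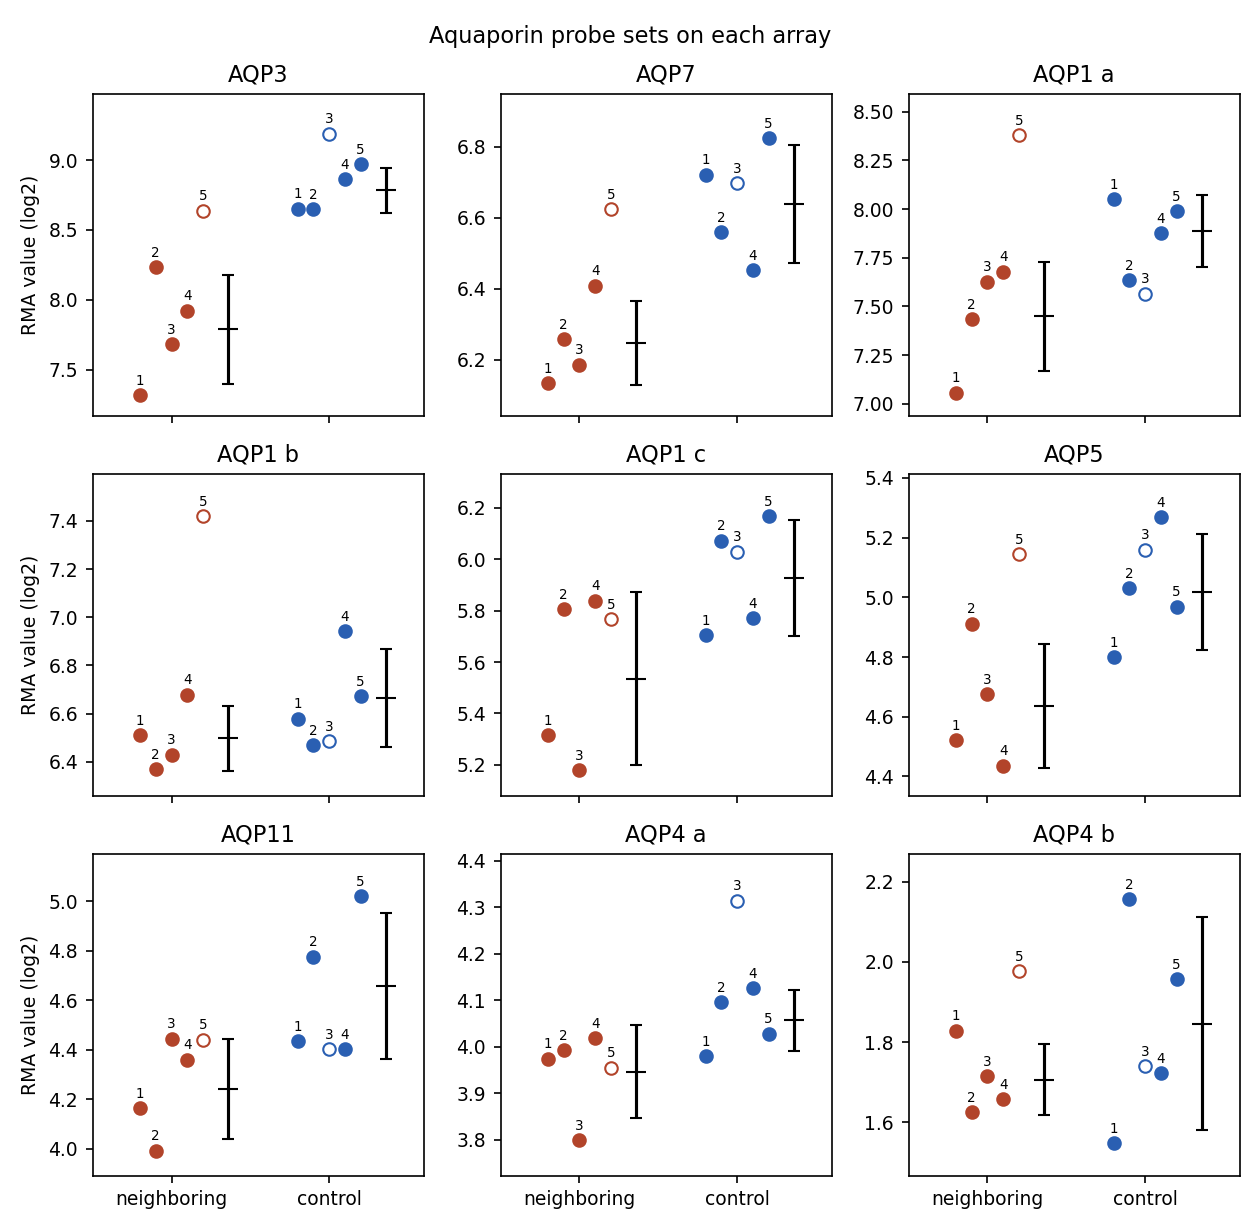
RMA values (log2) of the 9 aquaporin probe sets on each array, neighboring arrays on the left and control arrays on the right of each panel, with the replicate number over each point. Filled points are the 8 arrays of the main fit, open points neighboring 5 and control 3, and the bar is mean ± SD over the 4 filled arrays. AQP3 lies at 7.32 to 8.23 on the filled neighboring arrays and at 8.65 to 8.97 on the filled control arrays, with neighboring 5 at 8.64.

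The fall of AQP3 was called in each of the 8 fits that left out an array of the main fit, with differences between −1.14 and −0.84 and adjusted p (limma) between 0.00151 and 0.0133. On all 10 arrays the call was less firm. It held without neighboring 5 (adjusted p = 0.00202, limma) and was lost without any other array, with adjusted p between 0.0539 (without control 2) and 0.0918 (without neighboring 3). With neighboring 5 put back and control 3 left out, AQP3 differed by −0.83 ± 0.22 (SE, adjusted p = 0.0571, limma). With the mean hybridization control as covariate the difference was −0.75 ± 0.32 on the 8 arrays (adjusted p = 0.325, limma) and −0.52 ± 0.26 on the 10 arrays (adjusted p = 0.676, limma). On the 8 arrays this covariate was lower on every neighboring array than on every control, and on the 10 only neighboring 5 overlapped. Covariate and group can therefore hardly be told apart, and the lost call decides nothing.

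AQP7, an aquaglyceroporin known as the glycerol outlet of fat cells, also fell on the 8 arrays. Its values were 6.13, 6.26, 6.19 and 6.41 on neighboring 1 to 4 and 6.62 on neighboring 5, against 6.72, 6.56, 6.70, 6.45 and 6.82 on control 1 to 5. The first 4 neighboring arrays lay below every control, while neighboring 5 lay among the controls. On the 8 arrays the means were 6.25 ± 0.12 in neighboring glands and 6.64 ± 0.17 in control glands (SD, n = 4 each). AQP7 fell by 0.39 ± 0.11 (SE), which is 1.31-fold, with a 95% interval of −0.64 to −0.15 and an adjusted p of 0.0317 (limma).

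This call was close to the threshold. It was kept without neighboring 4 (adjusted p = 0.0325, limma) or without control 4 (adjusted p = 0.0299, limma) and lost without any of the other 6 arrays, with adjusted p between 0.0503 (without control 2) and 0.0807 (without neighboring 3). On all 10 arrays AQP7 averaged 6.32 ± 0.20 in neighboring glands and 6.65 ± 0.15 in control glands (SD, n = 5 each), a difference of −0.33 ± 0.11 (SE, adjusted p = 0.0892, limma). With the mean hybridization control as covariate the difference on the 8 arrays was −0.06 ± 0.17 (SE, adjusted p = 0.932, limma). As for AQP3, covariate and group can hardly be told apart there.

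AQP1 is the water channel of capillary endothelium and red blood cells, and its 3 probe sets gave unlike pictures. AQP1 a read 7.06, 7.43, 7.63 and 7.68 on neighboring 1 to 4 and 8.38 on neighboring 5, against 8.05, 7.63, 7.57, 7.87 and 7.99 on control 1 to 5. Neighboring 5 was the highest of all 10 arrays here, and the groups overlapped. On the 8 arrays AQP1 a differed by −0.44 ± 0.15 (SE, adjusted p = 0.0598, limma), and on the 10 arrays by −0.19 ± 0.20 (SE, adjusted p = 0.566, limma). AQP1 a passed the threshold on the 8 arrays without control 2 (adjusted p = 0.0456, limma), with the 40% dimmest probe sets left out (adjusted p = 0.0494, limma) and under 2 other scalings (adjusted p of 0.0412 and 0.0445, limma).

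AQP1 b read 6.51, 6.37, 6.43 and 6.68 on neighboring 1 to 4 and 7.42 on neighboring 5, against 6.58, 6.47, 6.49, 6.94 and 6.67 on control 1 to 5. Again neighboring 5 was the highest array, and its inclusion turned the sign, from −0.17 ± 0.12 on the 8 arrays to 0.05 ± 0.18 on the 10 arrays (SE). Neither value passed (adjusted p of 0.346 and 0.874, limma). AQP1 c read 5.32, 5.81, 5.18 and 5.84 on neighboring 1 to 4 and 5.77 on neighboring 5, against 5.70, 6.07, 6.03, 5.77 and 6.17 on control 1 to 5. Neighboring 5 did not stand apart on this probe set, which differed by −0.39 ± 0.17 on the 8 arrays and −0.37 ± 0.15 on the 10 arrays (SE, adjusted p of 0.124 and 0.136, limma).

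AQP5, a water channel of the apical membrane of salivary, lacrimal and other gland cells, was dim. It read 4.52, 4.91, 4.68 and 4.44 on neighboring 1 to 4 and 5.15 on neighboring 5, against 4.80, 5.03, 5.16, 5.27 and 4.97 on control 1 to 5. Only neighboring 2 and neighboring 5 reached the range of the controls. The difference was −0.38 ± 0.13 on the 8 arrays and −0.31 ± 0.14 on the 10 arrays (SE, adjusted p of 0.0663 and 0.179, limma). AQP5 passed with control 3 put back (−0.41 ± 0.13, SE, adjusted p = 0.0381, limma) and, on the 8 arrays, without neighboring 2 (adjusted p = 0.034, limma).

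AQP11, an unorthodox member found on intracellular membranes, read 4.16, 3.99, 4.44 and 4.36 on neighboring 1 to 4 and 4.44 on neighboring 5, against 4.44, 4.78, 4.40, 4.40 and 5.02 on control 1 to 5. Controls 2 and 5 were above all neighboring arrays and the other 3 were not. The difference was −0.42 ± 0.16 on the 8 arrays and −0.33 ± 0.14 on the 10 arrays (SE, adjusted p of 0.0796 and 0.157, limma). AQP4, the main water channel of brain astrocytes, was dim on both probe sets, and AQP4 b was close to the bottom of the scale. AQP4 a lay between 3.80 and 4.02 on the 5 neighboring arrays and between 3.98 and 4.31 on the 5 control arrays. AQP4 b lay between 1.63 and 1.98 on the neighboring arrays and between 1.55 and 2.16 on the control arrays. Both sets overlapped between groups, with differences of −0.11 ± 0.09 and −0.14 ± 0.13 on the 8 arrays (SE, adjusted p of 0.421 and 0.476, limma) and of −0.16 ± 0.09 and −0.06 ± 0.12 on the 10 arrays (SE, adjusted p of 0.262 and 0.757, limma).

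**Figure D2:**
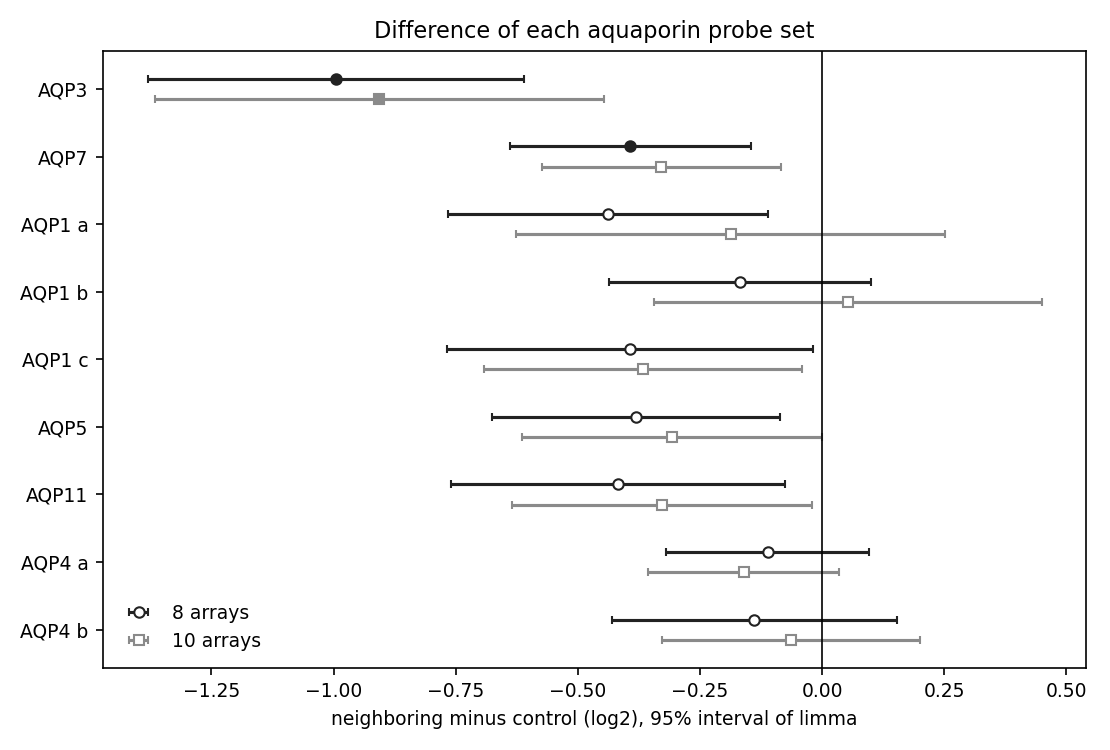
Difference of each aquaporin probe set, neighboring minus control on the log2 scale, with limma's 95% interval, for the 8 arrays of the main fit (circles) and for all 10 arrays (squares). Filled symbols have an adjusted p under 0.05 over 24016 probe sets: AQP3 at −0.996 and −0.906, and AQP7 at −0.39 on the 8 arrays.

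Of the family, 2 of the 9 probe sets were called at an adjusted p under 0.05 on the 8 arrays (22.2%), both lower, against 20.3% of all 24016 probe sets in either direction and 9.21% called lower (11.1% called higher). On the 10 arrays 1 of 9 was called (11.1%), against 6.9% of all probe sets, 3.04% called lower and 3.86% called higher. These shares are near those of all probe sets, and with 9 probe sets a single call moves them by 11.1%. In this fit of the deposited values 0 of 9 members showed more than a 2-fold difference at an adjusted p below 0.01, while 1.87% of all probe sets did on the 8 arrays and 0.0708% on the 10 arrays (limma). AQP3 lay close to that limit on the 8 arrays. At an unadjusted p under 0.05 stood 6 of 9 on the 8 arrays, against 35.6% of all probe sets, and 5 of 9 on the 10 arrays, against 27.9%. The groups did not overlap on the 8 arrays for 2 members, AQP3 and AQP7, and on the 10 arrays for 1, AQP3, while this held for 25.4% and 5.89% of all probe sets, and for 12.7% and 3.21% with neighboring lower.

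The direction was more uniform than the calls. On the 8 arrays all 9 probe sets were lower in neighboring glands, with a median difference of −0.39, where 56% of all probe sets were lower with a median of −0.04. On the 10 arrays 8 were lower with a median of −0.31, AQP1 b being the exception, where 55.7% of all were lower with a median of −0.03. The lean of all probe sets also went with their level. Among all 3109 probe sets with a mean between 4 and 5, the range of AQP4 a, AQP5 and AQP11, 71% were lower on the 8 arrays (median −0.12). Among the 2652 with a mean between 8 and 9, the range of AQP3, 41.1% were lower (median 0.09).

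Brightness is given here as a position among all probe sets, which holds the affinity of the probes as well as the transcript, so it gives no order of the genes. The 3 probe sets of AQP1 alone spread from 41.0% to 74.8%. By mean over the 10 arrays, AQP3 was brighter than 83.7% of all probe sets, AQP1 a than 74.8%, AQP1 b than 56.7%, AQP7 than 53.9% and AQP1 c than 41.0%. AQP5 was brighter than 27.1%, AQP11 than 20.8%, AQP4 a than 16.1% and AQP4 b than 1.56%. For scale, 21 measured genes of other tissues, such as hormones of the pituitary and proteins of the lens and sperm, had a median position of 34.8%. AQP5, AQP11 and AQP4 lay below that median. Positions on that list ran from 3.35% to 99.7%, with a 90th percentile of 81.4%, which only AQP3 among the aquaporins exceeded. Position alone thus does not show that a gene is expressed in the gland.

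The difference between AQP3 and each other gene within an array, each gene by its brightest probe set, is given as a description. AQP3 was singled out for its change on these same arrays, so a permutation test of these differences can support nothing. Between the group means it was −0.72 for AQP1 and −0.58 for AQP7 on the 10 arrays (log2, neighboring minus control), and −0.56 and −0.60 on the 8 arrays. The difference to AQP1 was below all controls on 4 of 5 neighboring arrays and that to AQP7 on 3 of 5. For AQP4, AQP5 and AQP11 it was −0.75, −0.60 and −0.58 on the 10 arrays. These 3 genes were dim, and a dim probe set can show little change, so nothing about them can be read from these values.

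**Figure D3:**
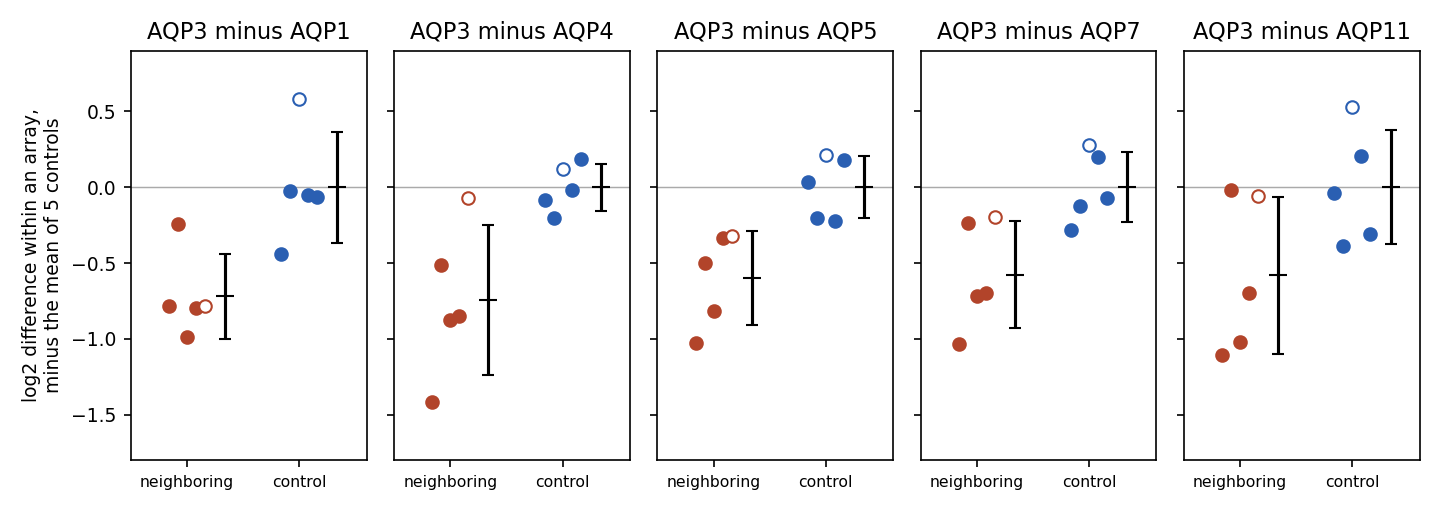
AQP3 minus the brightest probe set of each other aquaporin within an array (log2), shifted so that the mean of the 5 controls is 0, with neighboring arrays on the left and control arrays on the right of each panel. Open points are neighboring 5 and control 3, and the bar is mean ± SD over the 5 arrays. The neighboring means lie 0.72 below the controls for AQP1, 0.75 for AQP4, 0.60 for AQP5 and 0.58 for AQP7 and for AQP11.

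Cell types that carry these channels were followed by marker lists, each as the mean log2 value of its measured genes. The 17 of 17 measured markers of secretory epithelium had a median difference of 0.04 on the 8 arrays. They averaged 11.65 to 11.84 on neighboring 1 to 4 and 11.54 on neighboring 5, against 11.43 to 11.67 on the 5 controls, and 3 rose and 1 fell on the 8 arrays. KRT19 and EPCAM of epithelial cells rose 2.15-fold and 1.64-fold, and CLDN3, a tight junction protein, 1.64-fold (adjusted p of 0.00696, 0.000737 and 0.00807, limma). XDH, a protein of milk fat secretion named here after its value was seen, differed by −0.35 ± 0.11 (SE, adjusted p = 0.0466, limma). Other genes of milk secretion did not pass, with differences between −0.19 for BTN1A1 and 0.09 for CSN2.

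Several other lists were lower beside the aquaporins. Adipocyte markers, measured for 8 of 9 genes, averaged 6.46 to 6.69 on neighboring 1 to 4 and 6.79 on neighboring 5, against 6.73 to 7.15 on the controls, and 2 fell, FABP4, a fatty acid carrier, by 1.10 ± 0.15 and CIDEC, a lipid droplet protein, by 0.66 ± 0.16 (SE, adjusted p of 0.000842 and 0.0157, limma). The other 6 adipocyte markers did not pass, with differences between −0.85 for CIDEA and 0.28 for LIPE. The defining adipocyte genes ADIPOQ and LEP were dim, each brighter than at most 15.2% of probe sets. Myoepithelial markers, measured for 9 of 10 genes, averaged 8.85 to 9.53 on the 5 neighboring arrays and 9.57 to 10.15 on the controls, with 6 lower. They included CNN1, a contractile protein, by 1.35 ± 0.23, OXTR, the oxytocin receptor, by 1.24 ± 0.11, and TAGLN, another actin-binding protein, by 0.89 ± 0.25 (SE, adjusted p of 0.00312, 9.85e-05 and 0.0301, limma). Fibroblast markers, 9 of 9, averaged 8.30 to 8.91 on the neighboring arrays and 9.15 to 9.59 on the controls, with 4 lower and 1 higher. OGN and LUM, matrix proteoglycans, fell by 1.84 ± 0.20 and 1.72 ± 0.17 and the collagen COL3A1 by 0.95 ± 0.28 (SE, adjusted p of 0.000308, 0.000197 and 0.0342, limma). PDGFRA, a growth factor receptor named here after its value was seen, rose by 0.50 ± 0.13 (SE, adjusted p = 0.0214, limma). The other 4 did not pass, with differences between −0.75 for COL1A2 and −0.09 for DCN. The part of these cell types in the lower AQP3 and AQP7 values was not tested.

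For AQP1, endothelial markers (9 of 10 measured) averaged 7.06 to 7.33 on the neighboring arrays and 7.04 to 7.39 on the controls, overlapping throughout, and 1 fell, ENG, a TGF-beta co-receptor, by 0.47 ± 0.12 (SE, adjusted p = 0.0188, limma). The other 8 endothelial markers did not pass on the 8 arrays, with differences between −0.42 for TEK and 0.49 for PECAM1. Red blood cell markers (6 of 8 measured) averaged 4.22 to 4.44 on neighboring 1 to 4 and 4.62 on neighboring 5, against 4.43 to 4.53 on the controls. Neighboring 5 was thus the highest array on this list, as it was for AQP1 a and AQP1 b. None of the 6 passed on the 8 arrays (limma, 0 called and 2 at an unadjusted p under 0.05), and the brightest of them, HBB, was above only 27.3% of probe sets. The part of blood in the AQP1 values was not tested.

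Neutrophil markers (12 of 14 measured) had a median difference of 0.01 on the 8 arrays. They averaged 5.79 to 6.39 on the neighboring arrays and 5.48 to 5.92 on the controls, and 2 rose, the calcium-binding proteins S100A8 (5.35-fold) and S100A12 (3.95-fold, adjusted p of 0.000339 and 0.00106, limma). The other 10 did not pass, with differences between −0.54 for PGLYRP1 and 0.17 for S100A9. S100A9 was read by its brightest probe set alone, so its value does not cover any other probe set of the gene. Macrophage markers (7 of 10 measured) averaged 7.98 to 8.54 on the neighboring arrays and 8.07 to 8.62 on the controls, with a median difference of 0.10, and 2 fell, the scavenger receptor MSR1 (difference −1.90 ± 0.29) and the endotoxin co-receptor CD14 (−1.08 ± 0.26, SE, adjusted p of 0.00171 and 0.0162, limma). The other 5 did not pass, with differences between −0.07 for CSF1R and 0.34 for C1QB. Of 8 measured lymphocyte markers 4 fell on the 8 arrays and 0 on the 10 arrays (limma, 3 there at an unadjusted p under 0.05), led by CD3E, CD2 and CD3D of T cells, with differences of −0.75, −0.52 and −0.50 and a list median of −0.48. Neighboring 5 was the highest of all arrays on this list, at 6.76. The part of these cells in the aquaporin values was not tested.

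Genes of related function went both ways. Of 12 measured genes of glycerol handling 3 fell, 1 rose and 8 did not pass on the 8 arrays, with a median of −0.14. GPD1, which makes glycerol 3-phosphate, fell by 0.93 ± 0.13, GPAM, the first acyltransferase of triglyceride synthesis, by 0.76 ± 0.17 and LPL, the lipoprotein lipase, by 0.68 ± 0.19 (SE, adjusted p of 0.00111, 0.013 and 0.0305, limma). GPAT3, another acyltransferase, named here after its value was seen, rose by 0.49 ± 0.12 on the 8 arrays (SE, adjusted p = 0.0172, limma). It also passed on the 10 arrays (adjusted p = 0.0318, limma). The 8 that did not pass on the 8 arrays had differences between −0.41 for GPD2 and 0.48 for GK. Of 17 measured genes of ion and volume transport 2 rose, 5 fell and 10 did not pass, with a median of −0.02. SCNN1G, a subunit of the epithelial sodium channel, rose 4.48-fold, while LRRC8C, a subunit of volume-regulated anion channels, fell by 0.81 ± 0.18 and ATP1B1, a subunit of the sodium pump, by 0.80 ± 0.17 (SE, adjusted p of 0.00355, 0.0101 and 0.00824, limma). Other subunits of the channel and the pump, named here after their values were seen, did not follow. SCNN1B of the sodium channel fell by 0.34 ± 0.10 and ATP1B3 of the sodium pump rose by 0.55 ± 0.15 (SE, adjusted p of 0.0363 and 0.0254, limma). SCNN1A of the sodium channel differed by −0.02 ± 0.37 (SE, adjusted p = 0.974, limma). On the 10 arrays 0 of the 17 genes of ion and volume transport passed (limma), with 9 at an unadjusted p under 0.05.

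Of 8 measured genes of lactose synthesis 1 passed on the 8 arrays, the hexokinase HK1, which rose 1.34-fold (adjusted p = 0.0355, limma). LALBA, the lactose synthase cofactor, differed by −0.09 ± 0.09 (SE, adjusted p = 0.457, limma), a value chosen after it was seen. Of the osmotic response list only 3 of 10 genes were measured and 0 passed (limma, 0 also at an unadjusted p under 0.05). MIP, the lens aquaporin and the only other family gene measured, differed by −0.18 ± 0.12 (SE, adjusted p = 0.317, limma). Of all listed genes, the members left out and the genes of other tissues included, 42 were called on the 8 arrays and 16 on the 10 arrays. On the 10 arrays KRT19, CLDN3, XDH, FABP4, CIDEC, TAGLN, PDGFRA, ENG, LPL, SCNN1G, SCNN1B, LRRC8C, ATP1B1, ATP1B3 and HK1 did not pass. Over all 9155 genes 15.4% rose and 9.67% fell on the 8 arrays, and 5.45% rose and 3.36% fell on the 10 arrays.

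Genes with the pattern most like AQP3 were sought by Pearson's r of the deviations from the group means over the 10 arrays, which removes the difference between the means. Neighboring 5, close to the controls on AQP3 and AQP7, is among these arrays. The contrast between it and the other neighboring arrays can therefore still enter r. The 5 highest were ADTRP, SHF, ANK1, STX10 and CSPG5, with r between 0.947 and 0.958. Of these STX10, a syntaxin of vesicle traffic, also fell on the 8 arrays, by 0.57 ± 0.12 (SE, adjusted p = 0.00764, limma), and the other 4 differed by −0.21 to −0.07 and did not pass. For AQP7 they were UCP2, TARP, C17H22orf39, MTG1 and CHRM5, with r between 0.947 and 0.966. Of these UCP2, a mitochondrial carrier, fell by 0.36 ± 0.10 and CHRM5, a muscarinic receptor, by 0.39 ± 0.11 (SE, adjusted p of 0.024 and 0.0319, limma) on the 8 arrays. On the 10 arrays STX10, UCP2 and CHRM5 did not pass (adjusted p of 0.068, 0.0547 and 0.102, limma). Each r is a description of 10 arrays that share 1 hybridization series and was the highest of many, so no test is given.

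**Figure D4:**
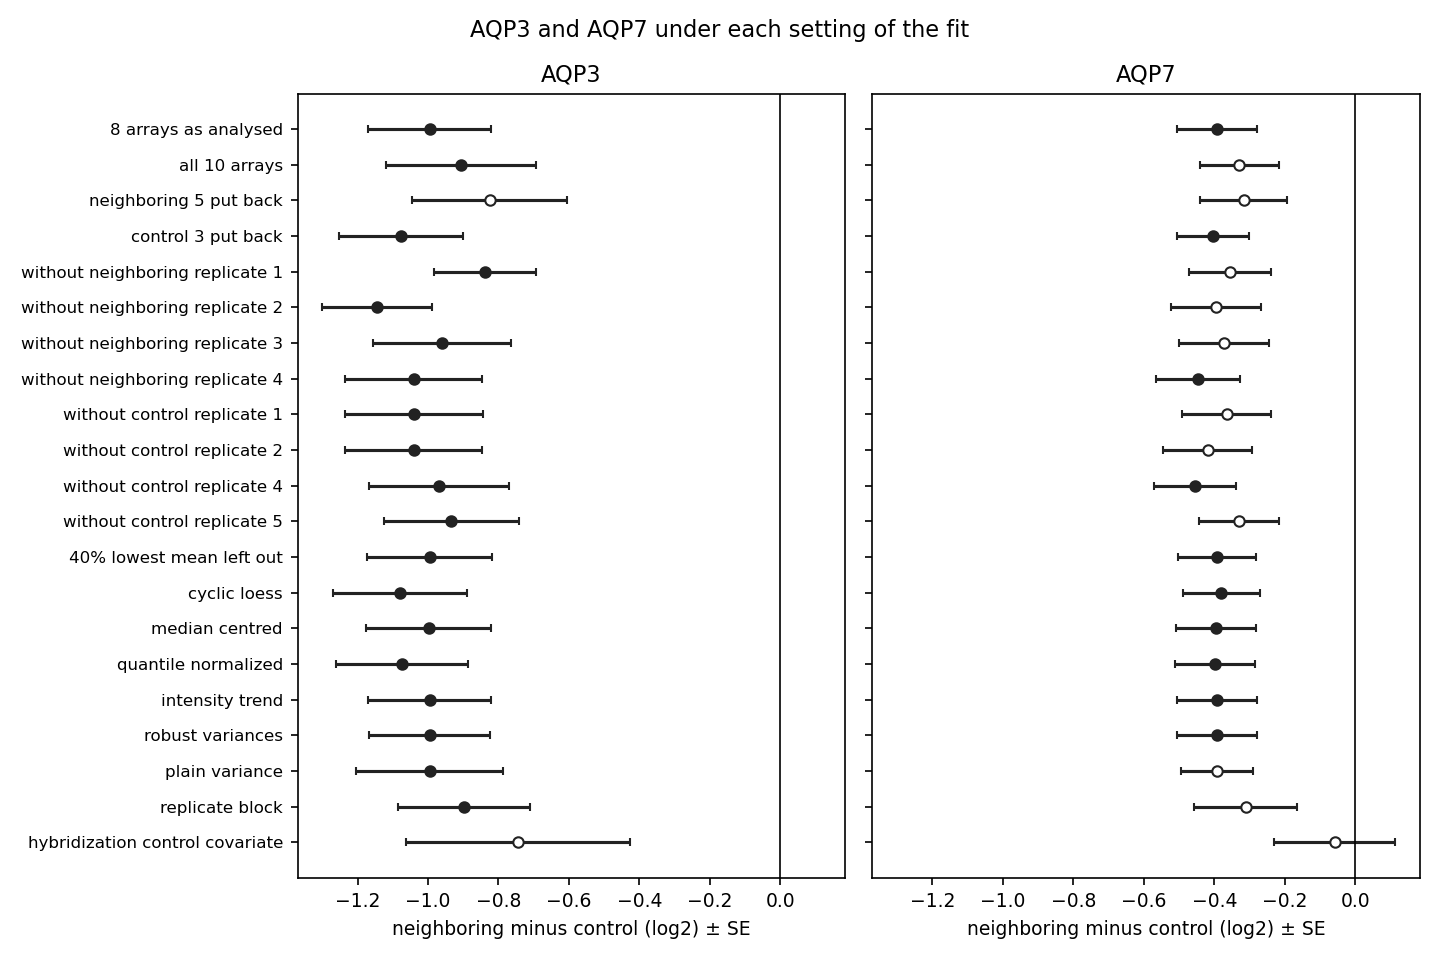
Difference of AQP3 (left) and AQP7 (right), neighboring minus control on the log2 scale ± SE, on the 8 arrays and under each other setting of the fit, with filled points for an adjusted p under 0.05. AQP3 stays between −1.14 and −0.75 and AQP7 between −0.45 and −0.06, and both lose the call with neighboring 5 put back and when the hybridization controls enter as a covariate, AQP7 also on all 10 arrays, with unmoderated variances, with the replicate block and without any of 6 arrays. On the 8 arrays the hybridization covariate followed the groups, so its effect can hardly be told apart from the group difference.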

How the data were processed

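Mammary RNA was amplified with biotin and read on Affymetrix bovine arrays. The values the authors deposited are on the log2 scale and come from RMA (background correction, quantile normalization, summary over probes). Its version is not given in the sources used here. Such scaling hides a change shared by most transcripts, and RMA compresses fold changes of dim probe sets. Groups were taken from the sample titles, since the source field of the controls repeats the text of the neighboring samples. Of 24016 probe sets besides 112 array controls, the annotation used here gave 1 symbol to 13292, several to 86 and none to 10638. No sequence table was used here, so no sequences are shown.

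The fit used limma 3.58.1 in R 4.3.3 (lmFit, eBayes) with Benjamini-Hochberg adjustment over all 24016 probe sets and a threshold of 0.05. No intensity filter was applied, because the members were taken whatever their signal. The present calls of the methods were not used here. Samples of the main fit followed the methods. SE is limma's moderated error. Cows are separate animals, so the spread holds animal, tissue and technical variation, and 5 arrays per group limit the precision. No 2 arrays held identical values (0 pairs). All aquaporins were named, of each list up to 3 genes with the largest change among those called, and 5 genes most like each called aquaporin. Genes of a list were read by their brightest probe set. The members and lists were chosen with earlier results of these data known. Alternatives covered the arrays, filter, scaling, variance model, weights, replicate block, hybridization controls and thresholds. On simulated arrays (24016 probe sets, 4 against 4) 46% of 1.5-fold, 88% of 2-fold and 92% of 3-fold changes were called. Only 50 probe sets were changed at each fold, while the main fit called 4886. These shares therefore do not give the sensitivity of the main fit. On the simulated arrays 15 unchanged probe sets were called too. Where no probe set at all was changed, 0 calls were made.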

Additional observations from a re-analysis of the deposited data

Results flagged for a closer look

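On AQP4 a, neighboring 3 stood apart from the other 4 neighboring arrays, at 3.80 against 3.96 for the nearest, a gap of 0.714 of the range of the group. About 1 in 20 groups is picked out this way by chance, and 18 groups were looked at.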

How the results depend on the processing

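Counts of called probe sets depended strongly on the arrays. With the main fit at 4886 of all and 2 members, the counts were 1657 and 1 on all 10 arrays, 834 and 0 with neighboring 5 put back, 2951 and 1 with an unmoderated variance, 151 and 0 with the mean hybridization control as covariate, 449 and 0 at the thresholds of the methods, and 3157 to 4364 and 1 to 2 when 1 array was left out. From the 10 arrays (1657 and 1), they were 0 and 0 with an unmoderated variance, 3 and 0 with the hybridization covariate, 17 and 0 at the thresholds of the methods, 4578 and 2 with array weights, and 43 to 5153 and 0 to 3 when 1 array was left out. The 0 calls of the unmoderated variance compare with 6691 probe sets at an unadjusted p under 0.05 in limma. The cause was not tested. The hybridization covariate followed the groups on the 8 arrays, so the counts with it can hardly tell covariate from group. Of the listed genes 42 were called on the 8 arrays and 16 on the 10. Of 5 within-array differences between AQP3 and another aquaporin, 4 had an adjusted exact permutation p under 0.05 on the 10 arrays, 0 on the 8 arrays and 0 to 5 with 1 array left out. AQP3 was chosen for its change on these arrays, so these counts support nothing. With 4 against 4 arrays the permutation p cannot go below 0.0286 before adjustment. AQP1 b turned to 0.0524 on all 10 arrays and 0.0164 with neighboring 5 put back, and from the 10 arrays to −0.0729 with array weights and, with 1 array left out, lay between −0.132 (without neighboring 5) and 0.131, AQP1 a turned to 0.286 with the covariate on the 10 arrays, and AQP4 b to 0.0188 without control 2 (lowest of these −0.133). The filter, the 3 scalings, the intensity trend and robust variances kept the calls of AQP3 and AQP7 on the 8 arrays.

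Replicate numbers are shared by the groups, but the cows differ, so they share only a number. Deviations of same-numbered arrays correlated at −0.14 to 0.20 over all probe sets. With the replicate block the counts were 1488 and 1 on the 8 arrays and 962 and 1 on the 10, with AQP3 at −0.90 ± 0.19 (SE, adjusted p = 0.0428, limma) on the 8.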
